A study of Mus musculus with 8 samples.

Results

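The genes described here are 10 genes of canonical NF-κB signalling: the transcription factor subunits Rela, Nfkb1 and Rel, the kinase genes Ikbkb and Ikbkg, the inhibitors Nfkbia and Nfkbie, the nuclear regulators Nfkbiz and Bcl3, and the ubiquitin-editing enzyme Tnfaip3. They were chosen by symbol, all 10 were found in both tables, and they stand among 14485 genes listed in at least 1 table and 13384 listed in both. RNA sequencing compared macrophages grown from bone marrow of female mice, 12 weeks old, that were wild type (WT) or knocked out for NF-κB-inducing kinase (NIK KO). Marrow cells were cultured for 7 days with 30% medium conditioned by L929 cells, which supplies M-CSF, replated with 5%, and given PBS or 20 ng/mL interleukin 4 (IL-4) for 6 hours. There were 2 mice per genotype, and the 4 mice each gave a library with PBS and a library with IL-4, making 8 libraries in 4 groups of 2. The sources used here name neither the mouse strain nor the removed part of the NIK gene.

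In unstimulated cells, inhibitor proteins of the IκB family hold the Rel proteins in the cytoplasm. Receptors such as Toll-like and TNF receptors activate the IKK kinase complex, which phosphorylates the IκBs and marks them for the proteasome, so that dimers of RelA, c-Rel and NF-κB1 enter the nucleus. Several genes that these dimers induce, among them those of IκBα, IκBε and the Tnfaip3 enzyme, shut the signal down again, which makes their RNA a common readout of recent NF-κB activity. NIK acts upstream of the parallel noncanonical branch, and IL-4 acts through STAT6.

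The feedback genes are known for κB sites near their starts, and their promoters are shown for that reason. The set of RefSeq promoters used here (GRCm38.p6) covered 7 of the 10 genes, each promoter running from 250 bases before the start to 50 after it. A match to the κB consensus, searched on both strands with overlapping matches kept, was found in a promoter of 5 of the 7 genes (Rel, Nfkbia, Nfkbie, Bcl3 and Tnfaip3), and of 5.14% of the 27025 genes in the table. Rela and Ikbkg had no match in this window, and Nfkb1, Ikbkb and Nfkbiz were not among the promoters used here. The sequences below read 5′ to 3′ on the gene's strand, with the matches in capitals. Those of Rel and Nfkbia are whole, since they are the subunit with the largest shift with IL-4 and the inhibitor with the highest level, and the others are windows of 25 bases to each side of a match.
Rel, chr11:23770920-23771219, minus strand: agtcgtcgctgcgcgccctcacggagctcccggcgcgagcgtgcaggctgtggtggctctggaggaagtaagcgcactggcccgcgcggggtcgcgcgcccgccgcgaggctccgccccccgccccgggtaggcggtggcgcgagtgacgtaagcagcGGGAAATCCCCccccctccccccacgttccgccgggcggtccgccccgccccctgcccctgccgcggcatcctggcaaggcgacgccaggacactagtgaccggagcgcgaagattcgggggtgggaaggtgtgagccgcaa
Nfkbia, chr12:55492598-55492897, minus strand: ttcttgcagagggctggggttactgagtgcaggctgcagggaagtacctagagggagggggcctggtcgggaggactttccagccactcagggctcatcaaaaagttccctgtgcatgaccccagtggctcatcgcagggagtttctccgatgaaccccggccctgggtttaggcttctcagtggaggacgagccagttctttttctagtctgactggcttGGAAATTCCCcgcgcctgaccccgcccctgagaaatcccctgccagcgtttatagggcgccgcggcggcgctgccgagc
Nfkbie, chr17:45555569-45555628, plus strand: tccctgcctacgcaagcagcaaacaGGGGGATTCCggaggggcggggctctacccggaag
Bcl3, chr7:19822719-19822778, minus strand: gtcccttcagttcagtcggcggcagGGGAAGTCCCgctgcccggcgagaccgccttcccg
Tnfaip3, chr10:19015501-19015560, minus strand: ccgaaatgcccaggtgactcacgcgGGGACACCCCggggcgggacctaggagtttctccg
Tnfaip3, chr10:19015388-19015447, minus strand: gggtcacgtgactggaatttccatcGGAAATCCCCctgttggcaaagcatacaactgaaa
The match in Rel covers overlapping forms on both strands, GGGAAATCCC on the gene's strand and GGGGATTTCC and GGGATTTCCC on the other. Tnfaip3 had 2 separate matches, GGGACACCCC on its own strand and GGGGATTTCC on the other, and Rel and Tnfaip3 thus shared the latter form. The STAT6 motif TTCNNNNGAA, searched in the same way, was found for Ikbkg and Tnfaip3, 2 of the 7 genes, and for 8.01% of all genes with a promoter. The 7 genes had 11 promoters, of which 5 held a κB match and 2 a STAT6 match. The start of the matching Ikbkg promoter coincided with that of no GENCODE M21 transcript. The same held for the promoters shown for Rel, Nfkbie and Bcl3. A match describes letters and does not show binding, and a window without one says nothing about the factor.

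The deposited tables give 1 fold change per gene and treatment, so values per library and library depths are unknown, and group means were recovered from each gene's base mean and fold change. Base means summed to 1.42e+07 with PBS and 1.66e+07 with IL-4. Map3k14, the gene of NIK, stood higher in the libraries labelled NIK KO in the authors' deposited tables, at 425 against 902 normalized counts with PBS and 418 against 832 with IL-4 (DESeq2 adjusted p = 0.176 and 0.00782), which goes against the label unless reads outside a removed part were counted. A reversed direction in the tables would turn the sign of every genotype effect below and exchange the WT and NIK KO labels on every level, share and ratio, since group means were recovered from the fold change. All 10 macrophage markers were listed, with summed levels of 481211 to 652077 in the 4 groups. Markers of other cells were far lower. Summed fibroblast markers were 119 in WT and 109 in NIK KO with PBS and 440 and 164 with IL-4, where 1 of 8 was called lower, and erythroid markers were 96.1 and 103 with PBS and 341 and 154 with IL-4. Neutrophil markers (6 of 8 listed with PBS, 5 with IL-4) summed to between 173 and 242 in the 4 groups, and B cell markers (2 and 3 of 6 listed) to between 79.7 and 127. T and NK cell markers, of which 1 of 6 was listed, and mast cell and basophil markers, also 1 of 6, stayed at 31.8 or lower. Dendritic cell markers, all 6 listed, summed to 362 and 342 with PBS and to 1889 and 1813 with IL-4, most of it Itgax, which macrophages also express. Textbook IL-4 targets, named here outside the naming rule, were high with IL-4: Arg1 went from 30.5 to 8190.2 in WT and from 17.3 to 7136 in NIK KO, and Retnla from 2.34 to 1385 and from 2.67 to 1274.

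No subunit or kinase gene was called between genotypes, and their levels in WT and NIK KO lay close together. Rela, the main transactivating subunit (ENSMUSG00000024927, chromosome 19), had 1526 normalized counts in WT and 1509 in NIK KO with PBS, and 1581 and 1791 with IL-4. The authors' deposited tables give it a log2 fold change, NIK KO over WT, of -0.02 ± 0.25 (SE, 2 mice against 2) with PBS and 0.18 ± 0.19 with IL-4 (DESeq2 p = 0.949 and 0.345). Nfkb1, whose product is a precursor and, once processed, the usual partner of RelA (ENSMUSG00000028163, chromosome 3), had 2449 normalized counts in WT against 2283 in NIK KO with PBS, and 5435 against 5323 with IL-4. Both of its IL-4 means lay above both of its PBS means, and the genotypes differed by -0.10 ± 0.28 with PBS and -0.03 ± 0.20 with IL-4 in the authors' deposited tables.

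Rel, which encodes c-Rel, a subunit prominent in immune cells (ENSMUSG00000020275, chromosome 11), had 480.2 normalized counts in WT and 488 in NIK KO with PBS, and 1357 and 1342 with IL-4. Its genotype effect was 0.02 ± 0.28 with PBS and -0.02 ± 0.18 with IL-4 in the authors' deposited tables. With IL-4 the 95% interval of that effect runs from 0.778-fold to 1.26-fold, the narrowest of the 10 on the log2 scale. Next came those of Ikbkg at 0.894-fold to 1.45-fold and Ikbkb at 0.772-fold to 1.26-fold.

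Ikbkb, the catalytic kinase of the canonical pathway (ENSMUSG00000031537, chromosome 8), had 1719 normalized counts in WT against 1700.3 in NIK KO with PBS, and 1831 against 1804 with IL-4. Ikbkg, the regulatory subunit NEMO (ENSMUSG00000004221, chromosome X), had 1183 against 1195 with PBS, and 1436 against 1634 with IL-4. In the authors' deposited tables Ikbkb was at -0.02 ± 0.25 and -0.02 ± 0.18, and Ikbkg at 0.01 ± 0.28 and 0.19 ± 0.18, with PBS and IL-4. Over these 5 genes the 95% intervals of the log2 fold change reach from -0.64 to 0.58 with PBS and from -0.42 to 0.55 with IL-4 (the outermost ends over the 5 genes).

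The inhibitors and feedback genes were not called either, and their intervals were wider. Nfkbia, which encodes IκBα, the inhibitor that is rapidly degraded and remade during signalling (ENSMUSG00000021025, chromosome 12), had 4024 normalized counts in WT and 3420.0 in NIK KO with PBS, and 3189.9 and 2543 with IL-4. The NIK KO mean was the lower one in both treatments, at -0.23 ± 0.33 and -0.33 ± 0.26 in the authors' deposited tables (DESeq2 p = 0.476 and 0.208). The value with IL-4 had the lowest p of the 10 genes in that table. Nfkbie, which encodes IκBε, a slower inhibitor (ENSMUSG00000023947, chromosome 17), had 959 in WT and 732 in NIK KO with PBS, and 1081 and 956 with IL-4. Its effects were -0.39 ± 0.35 and -0.18 ± 0.30 in the authors' deposited tables (DESeq2 p = 0.267 and 0.551), the first of them the largest of the 10 genes with PBS.

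Nfkbiz, which encodes IκBζ, a nuclear coactivator of secondary inflammatory genes (ENSMUSG00000035356, chromosome 16), had 854 normalized counts in WT and 785 in NIK KO with PBS, and 454 and 379 with IL-4. Its effect with PBS was -0.12 ± 0.40 and with IL-4 -0.26 ± 0.96 in the authors' deposited tables. The interval with IL-4 runs from 0.227-fold to 3.08-fold, so that table holds almost no information on Nfkbiz. Bcl3, a nuclear IκB protein that binds dimers of the processed subunits (ENSMUSG00000053175, chromosome 7), had 649 and 648 with PBS, and 551 and 598 with IL-4. Tnfaip3, which removes and edits ubiquitin chains on signalling proteins (ENSMUSG00000019850, chromosome 10), had 829 and 919 with PBS, and 1153 and 1129.8 with IL-4. In the authors' deposited tables Bcl3 was at 0.00 ± 0.36 and 0.12 ± 0.28, and Tnfaip3 at 0.15 ± 0.33 and -0.03 ± 0.25.

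**Figure D1:**
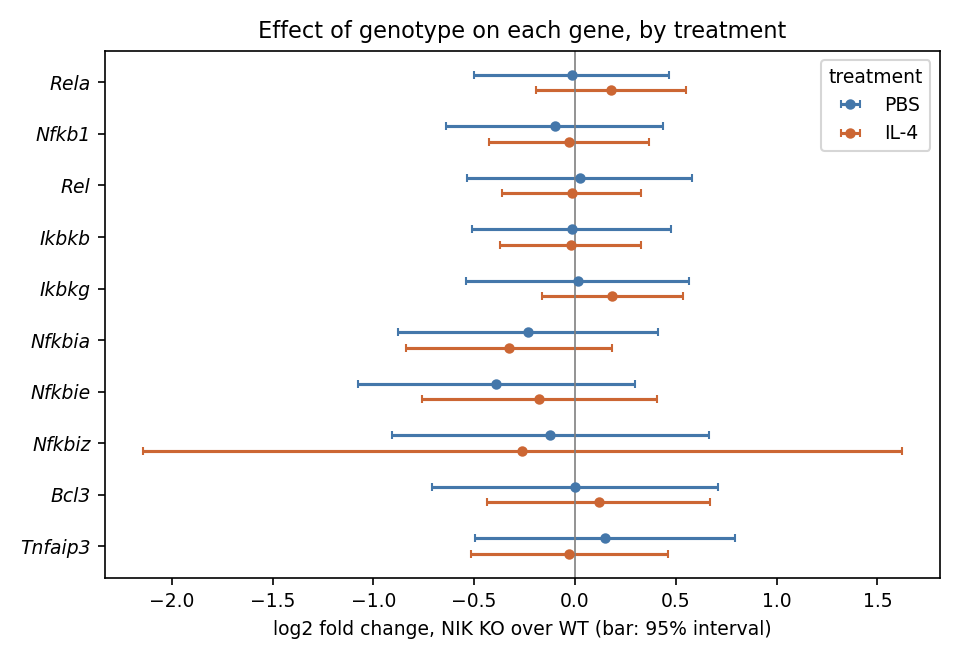
Log2 fold change of each gene, NIK KO over WT (horizontal axis), as deposited, with PBS (blue) and IL-4 (orange); bars are 95% intervals from the deposited standard errors, 2 mice against 2. All 20 intervals include 0, and that of Nfkbiz with IL-4, from -2.14 to 1.62, is by far the widest.

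Of the 10 genes, 0 were called with PBS and 0 with IL-4 at a DESeq2 adjusted p under 0.05, and 0 had an unadjusted p under 0.05 in either table. Over all genes the share called was 0.0366% with PBS and 0.120% with IL-4, so a count of 0 among 10 is near the background. Under both treatments NIK KO was above WT for 3 of the 10 and below it for 7, with medians of -0.02 and -0.03 beside -0.01 and -0.01 over all genes. Over all genes NIK KO was below WT for 7071 of 13676 with PBS and 7251 of 14193 with IL-4. The change of the genotype effect from PBS to IL-4, tested as the difference of the deposited fold changes by a z test, was called for 0 of the 10 genes (0 at an unadjusted p under 0.05) and for 0.0149% of 13384 genes. It lay between -0.18 ± 0.41 for Tnfaip3 and 0.21 ± 0.46 for Nfkbie. The interval of that difference for Rel runs from -0.70 to 0.62 and for Nfkbiz from -2.18 to 1.90, which leaves room for sizeable differences.

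**Figure D2:**
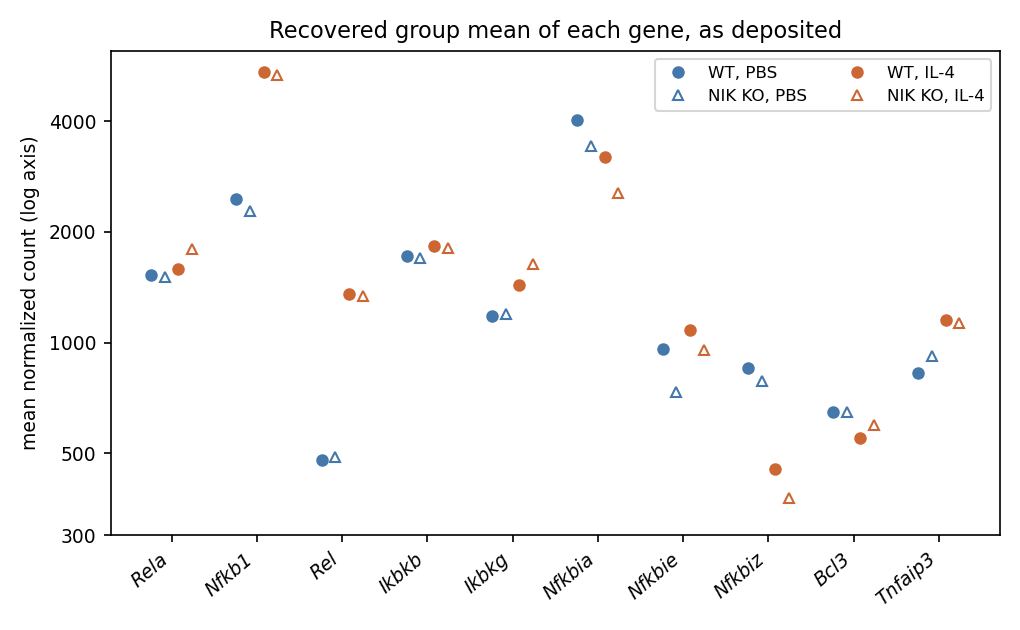
Mean normalized count of each gene (vertical log axis) in the 4 groups, recovered from the deposited base mean and fold change; circles are WT, open triangles NIK KO, blue PBS and orange IL-4, with no error since libraries are not given singly. Nfkb1 and Rel stand higher with IL-4 and Nfkbiz lower in both genotypes, while WT and NIK KO lie side by side for most genes.

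The larger shifts in these genes, by size alone, lay between treatments, and those of Rel and Nfkb1 were close in the 2 genotypes. PBS and IL-4 tables were normalized separately, so levels were set to a median ratio of 1 over the 9148 genes with a base mean of at least 100 in both, and the ratios carry no test. An approximate error was derived from the deposited standard errors, taking the spread as equal in WT and NIK KO and the libraries as independent. Rel was 2.35-fold higher with IL-4 in WT and 2.27-fold in NIK KO, log2 ratios of 1.23 ± 0.24 and 1.18 ± 0.24. Nfkb1 was 1.85-fold higher in WT and 1.93-fold in NIK KO, log2 ratios of 0.88 ± 0.24 and 0.95 ± 0.24. A higher ratio than that of Rel was found for 1.31% of the 9148 genes in WT and 1.64% in NIK KO. In bulk RNA, fewer cells of a type and less RNA per cell cannot be told apart, and the part of the fibroblast RNA given above, highest in the group labelled WT with IL-4, was not tested, nor was that of the erythroid markers.

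Among the inhibitors, Nfkbia was at 0.660 of its PBS level in WT and 0.614 in NIK KO with IL-4, log2 ratios of -0.60 ± 0.30 and -0.70 ± 0.30. The ratio of Nfkbia in WT lies at the 1.5-fold line and passes it or misses it with the scaling. Nfkbiz was at 0.442 and 0.398, log2 ratios of -1.18 and -1.33, each with an approximate error of 0.74, so its ratios lie less than 2 errors from 0 despite their size. Bcl3 was at -0.50 ± 0.32 in WT and -0.39 ± 0.32 in NIK KO. The other 5 genes, Rela, Ikbkb, Ikbkg, Nfkbie and Tnfaip3, lay between -0.21 and 0.21, within 1 approximate error of 0 in both genotypes. By the 1.5-fold rule, 2 of the 10 genes were higher (Nfkb1 and Rel) and 2 lower (Nfkbia and Nfkbiz) in each genotype. Over the 9148 genes 5.63% were higher and 6.95% lower in WT, and 7.31% and 7.70% in NIK KO, and with 10 genes those counts are a description.

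**Figure D3:**
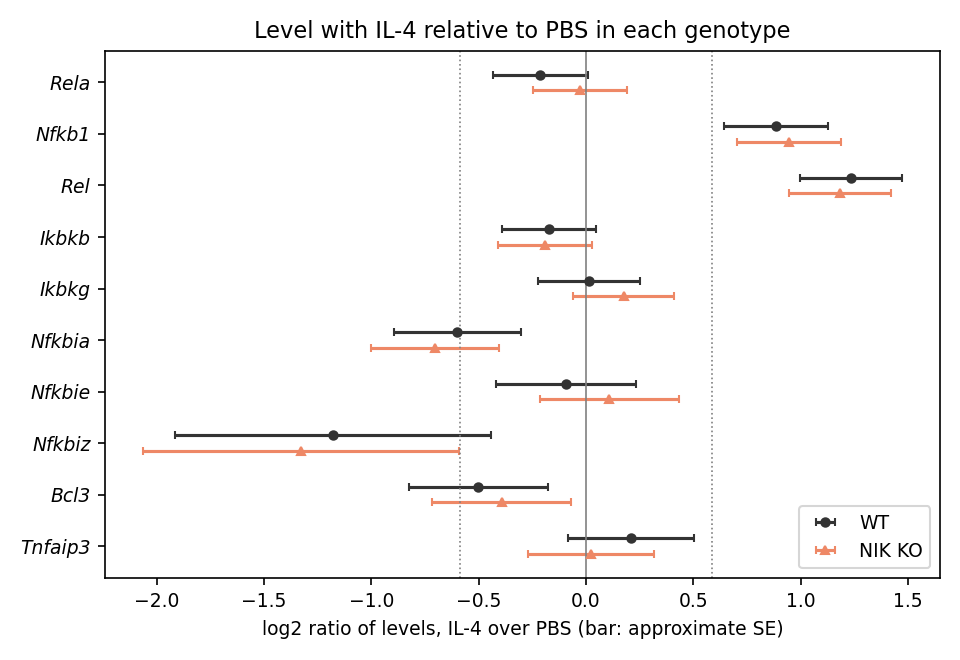
Log2 ratio of each gene's level with IL-4 to that with PBS (horizontal axis), WT in black and NIK KO in orange, after scaling to a median ratio of 1; bars are approximate standard errors and dotted lines mark 1.5-fold. Rel and Nfkb1 lie to the right of the upper line in both genotypes, and the wide bars of Nfkbiz come with its large deposited standard error.

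Ratios within a group do not depend on the scaling between tables. Per kb of the longest transcript, Nfkb1 made up 48.5% of the summed level of Nfkb1, Rela and Rel in WT with PBS and 47.0% in NIK KO, and 63.2% and 60.5% with IL-4. The part of Rela was 46.2% and 47.4% with PBS and 28.1% and 31.1% with IL-4, and that of Rel 5.29% and 5.58% with PBS and 8.77% and 8.47% with IL-4. The subunit make-up of the RNA thus differed between treatments more than between genotypes, with Nfkb1 and Rel taking a larger part with IL-4. The ratio of Rel to Rela was 2.73 times as high with IL-4 in WT (log2 1.45 ± 0.32, approximate error) and 2.32 times in NIK KO (1.21 ± 0.32). The ratio of Nfkb1 to Rela changed by 1.10 ± 0.33 and 0.97 ± 0.33 on the log2 scale.

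Per kb, Nfkbia was the highest of the 10 genes in every group, from 1612 normalized counts per kb in NIK KO with IL-4 to 2550.0 in WT with PBS. Nfkb1 and Rela followed, nearly level with PBS (590.4 and 562 in WT, 550.2 and 556 in NIK KO) and apart with IL-4 (1310.0 and 582 in WT, 1283 and 660 in NIK KO). With PBS, Nfkb1 and Rela exchanged places between genotypes by less than their errors. Ikbkb, Bcl3 and Nfkbie came next, between 244 and 378 in all groups, and Ikbkg, Tnfaip3, Nfkbiz and Rel were lowest. Rel was last with PBS (64.3 in WT and 65.4 in NIK KO), and with IL-4 Nfkbiz was last (110 in WT and 92.0 in NIK KO), below Rel at 182 and 180. The longest transcript need not be the one expressed, so this order is approximate, and Rel, with 7466 bases, has the longest of the 10. At most 1.52% of the 31-base words in a member's longest transcript occur in another gene, so sharing of reads with copies is small.

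Within the genes described here, the 2 kinds differed in how precisely their genotype effect was measured. Each standard error was ranked among genes whose base mean in the same table lay within 1.5-fold. The 5 inhibitor and feedback genes ranked from the 93.3 to the 98.9 percentile with PBS and from the 95.5 to the 99.6 percentile with IL-4. The 5 subunit and kinase genes ranked from the 14.0 to the 75.3 percentile with PBS and from the 14.7 to the 91.6 percentile with IL-4, the upper end in both being Nfkb1. The groups did not overlap in either table, which with 5 genes each is a description and was not tested. High ranks were not particular to the inhibitor and feedback genes. Of 32 textbook NF-κB target genes, 23 with PBS and 24 with IL-4 also ranked above the 90 percentile. Related genes followed the split between the 2 kinds only in part. With PBS and IL-4 the IκB genes Nfkbib (92.8 and 93.1) and Nfkbid (92.0 and 97.0) ranked high, and the kinase gene Chuk (10.5 and 53.1) did not. Others went against the split. With PBS and IL-4 the subunit genes Nfkb2 (97.0 and 98.4) and Relb (95.8 and 98.1) and the kinase gene Ikbke (98.0 and 98.9) ranked high as well. The inhibitor family gene Nfkbil1 ranked at 79.1 and 39.4, and other negative regulators had median percentiles of 63.8 and 51.7. Nfkbiz with IL-4 had a standard error of 0.96, where the median of 2375 genes of like level was 0.25. With no values per library, how that spread is divided among the 4 libraries is unknown.

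**Figure D4:**
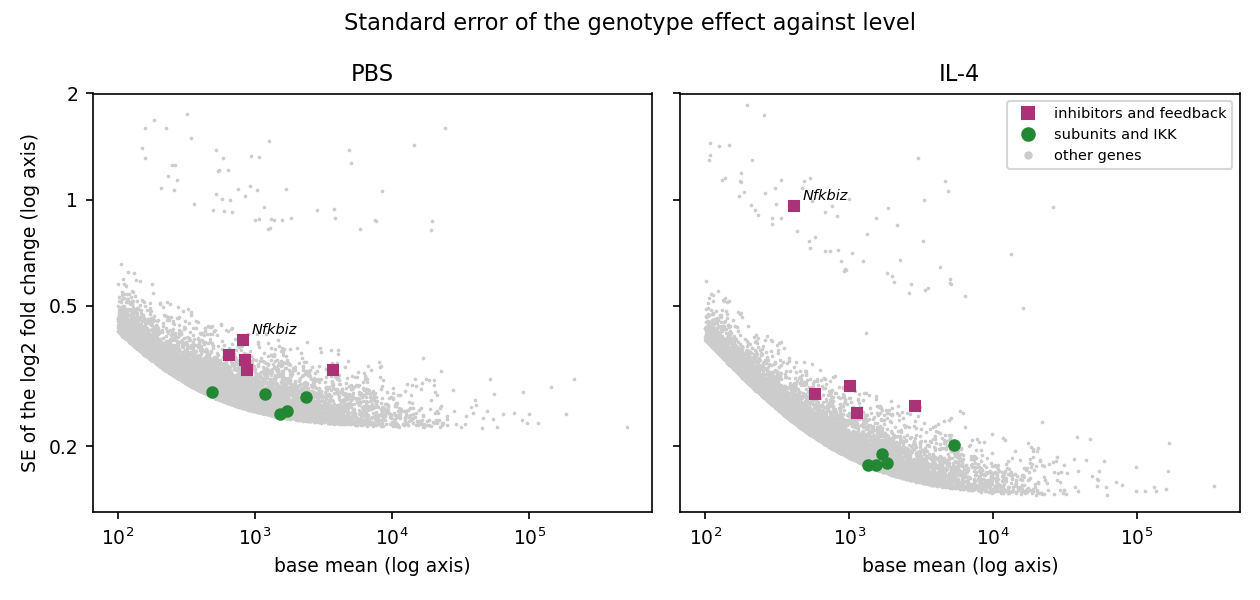
Deposited standard error of the genotype effect (vertical log axis, log2 units) against base mean (horizontal log axis), with PBS at left and IL-4 at right, for genes of base mean 100 or more; squares are the 5 inhibitor and feedback genes, circles the 5 subunit and kinase genes, grey points the other genes. The squares lie along the upper edge of the main band, and Nfkbiz with IL-4, at 0.96, lies above it.

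The rest of the pathway was read from lists, and 0 of their genes were called in either table or had an unadjusted DESeq2 p under 0.05, where 1.24% (PBS) and 2.95% (IL-4) of all genes had one. Of 21 upstream adaptors and kinases, 9 were higher with PBS (median -0.05) and 14 with IL-4 (median 0.04) in the libraries labelled NIK KO. The largest statistics in the authors' deposited tables were those of Tab2, a TAK1-binding adaptor, at 0.34 ± 0.24, Chuk, the kinase IKKα, at 0.32 ± 0.26 and Birc3, a ubiquitin ligase, at -0.27 ± 0.29 with PBS. With IL-4 they were Irak1, a kinase of Toll-like receptor signalling, at 0.28 ± 0.18, Ripk1, a kinase of TNF receptor signalling, at 0.23 ± 0.17 and Tank at -0.24 ± 0.21 (authors' deposited table). Of the 11 genes of linear ubiquitin and IκB degradation 10 were listed, 7 of them higher with PBS and 6 with IL-4 (medians 0.09 and 0.08). Rnf31, the catalytic subunit of the linear ubiquitin ligase, was at 0.22 ± 0.27 and 0.32 ± 0.20 in the authors' deposited tables, and its partner Sharpin at 0.29 ± 0.29 with PBS. The other genes named by the rule were Ube2n at 0.19 ± 0.26 with PBS, and Ube2v1 at 0.24 ± 0.17 and Cops5 at -0.21 ± 0.18 with IL-4 (authors' deposited tables).

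Other Rel and IκB family genes were lower in 5 of 6 cases with PBS and in 4 of 6 with IL-4 (medians -0.26 and -0.10). Such counts are a description, to be read beside those over all genes given above. In the authors' deposited tables Nfkb2, the noncanonical subunit, was at -0.51 ± 0.34 and -0.13 ± 0.25 with PBS and IL-4, and Nfkbid, a nuclear IκB, at -0.45 ± 0.35 and -0.30 ± 0.30. Relb was at -0.32 ± 0.34 with PBS, and Ankrd42, listed at 5.95 and 14.0 normalized counts, at 1.23 ± 1.22 with IL-4 (authors' deposited tables). Of 20 other negative regulators 9 were higher with PBS and 10 with IL-4 (medians -0.03 and 0.00). Trim30a was at 0.49 ± 0.26 and 0.23 ± 0.16 in the authors' deposited tables, and its p of 0.0618 with PBS (DESeq2, unadjusted) was the lowest of all listed genes. Zc3h12a, an RNase that degrades inflammatory transcripts, was at -0.52 ± 0.30 and Tnip1, a partner of the Tnfaip3 enzyme, at -0.44 ± 0.33 with PBS, and N4bp1 at 0.25 ± 0.19 and Commd1 at -0.28 ± 0.21 with IL-4 (authors' deposited tables).

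Of 32 textbook NF-κB target genes 22 were lower with PBS (median -0.12) and 25 with IL-4 (median -0.14) in the libraries labelled NIK KO, beside medians of -0.01 over all genes in both tables. Over all genes 7071 of 13676 were lower with PBS and 7251 of 14193 with IL-4. The same mice stand behind both tables, and these counts were not tested. The largest statistics with PBS belonged to the adhesion molecule Icam1 at -0.52 ± 0.37, the signalling adaptor Traf1 at -0.54 ± 0.39 and the receptor Ccrl2 at -0.55 ± 0.43 in the authors' deposited table. With IL-4 they belonged to Gadd45b at -0.29 ± 0.21, the costimulatory receptor Cd40 at -0.31 ± 0.25 and Plau, urokinase, at 0.25 ± 0.20 (authors' deposited table). The standard errors of these targets, like those of the 5 inhibitor and feedback genes described here, ranked high among genes of like level. Their median percentile was 98.2 with PBS and 98.4 with IL-4. That of the upstream adaptors and kinases was 49.5 and 36.4, and that of the 20 other negative regulators 63.8 and 51.7. For the other Rel and IκB family genes it was 92.4 with PBS and higher with IL-4. A high rank was thus not shared by negative regulators in general.

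Between treatments some targets stood higher and others lower. Of 28 targets with a base mean of at least 100 in both tables, 7 were 1.5-fold or more higher with IL-4 and 12 lower in WT, and 6 and 12 in NIK KO. That is 25% and 42.9% in WT and 21.4% and 42.9% in NIK KO, beside 5.63% and 6.95%, and 7.31% and 7.70%, over all 9148 genes. Of the 12 lower targets, 10 in WT and 9 in NIK KO lay within 2 approximate errors of 0, as did 2 of the higher ones in each genotype. The following genes were chosen after their values were seen. Cd83, an activation marker, had a log2 ratio of 2.19 ± 0.30 in WT and 1.80 ± 0.30 in NIK KO, and Ier3 1.60 ± 0.33 and 1.69 ± 0.33. Cxcl10, a chemokine also induced by interferon, was at -2.25 ± 0.68 and -2.56 ± 0.68, while Il1b, at -2.08 and -2.18, has an approximate error of 1.06. From the other lists, the negative regulator Irak3, an inhibitor of Toll-like receptor signalling, was at -1.60 ± 0.63 and -1.55 ± 0.63. The upstream adaptor Traf5 was at 1.42 ± 0.27 and 1.37 ± 0.27. By the same rule, 2 of 19 other negative regulators were higher and 6 lower in WT, and 3 and 4 in NIK KO. Of 21 upstream adaptors and kinases, 1 was higher and 1 lower in WT, and 1 and 2 in NIK KO.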

How the data were processed

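The authors deposited, per the file headers, a base mean per gene (the signal of counts divided by size factors and averaged over the 4 libraries of a table), a log2 fold change with its standard error, a Wald statistic (a score equal to the fold change over its error to within 1.44e-07), a p-value and an adjusted p-value. Salmon 1.4.0, DESeq2 1.32.0 and build GRCm39 are named in the submitters' processing notes, without their roles. NIK KO over WT is the direction in the IL-4 table's name, and it was taken for PBS too. With equal group sizes, the base mean and fold change together give both group means if the fold change is the ratio of the mean normalized counts. A fitted fold change need not equal that ratio exactly, so the recovered means are approximate. The simulated data took the ratio as exact and could not test this.

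Calls are genes whose deposited adjusted p was under 0.05 (Benjamini-Hochberg over all genes). The difference between treatments was tested by a two-sided z test, taking errors as independent although mice are shared. Intervals are the estimate ± 1.96 standard errors. The approximate error of a level ratio is the root of the mean of both squared standard errors. Running medians covered 501 genes. No values per library were used, so precision rests on the deposited errors, and the p-values rest on 2 mice a side. Symbols came from the files, promoters from RefSeq (GRCm38.p6), transcripts from GENCODE M21 (GRCm38), a build other than the authors', so no coordinate was joined to the tables. In the lists every called gene was to be named, and otherwise the 3 of largest statistic per table. The genes and lists were chosen with earlier results of these data known. Python 3.11.15, pandas 2.3.3, scipy 1.17.1 and statsmodels 0.14.6 were used, and the steps were tested on simulated data. For the approximate error, the simulated libraries were independent and of equal spread, so those assumptions were not tested.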

Additional observations from a re-analysis of the deposited data

How the results depend on the processing

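The 3 counts of called genes (PBS, IL-4 and their difference), each 0, were also 0 under every alternative run: only genes of base mean 100 or more, a median fold change subtracted, a threshold of 0.1, t distributions (2 degrees of freedom within a table, 4 between tables), no independent filtering and Benjamini-Yekutieli adjustment (the last pair within tables only), errors correlated at 0.5 (the difference only), and, added after the data were seen, an unadjusted p under 0.05. A t distribution with 2 degrees of freedom can hardly call any gene, so its 0 says nothing. The lowest unadjusted p of the 10 genes was 0.267 with PBS and 0.208 with IL-4 (DESeq2), and 0.531 for the difference (z test). An adjusted p is never below its unadjusted p. The choice of genes, the filtering, the adjustment and the threshold of 0.1 could therefore not have called any of the 10. Subtracting the median or a trend on base mean changed the sign of 0 of the 10 fold changes in either table, and a trend on transcript length of 2 with PBS (Ikbkg and Bcl3, both near 0). Left as deposited, levels with IL-4 are higher by 0.26 (WT) and 0.28 (NIK KO) on the log2 scale: Nfkb1 then stands at 1.15 and 1.22, Rel at 1.46 in NIK KO, Rela and Ikbkb turn positive in both genotypes (0.05 and 0.25, and 0.09 and 0.09), Nfkbie turns positive in WT (0.17), and Ikbkg stands at 0.28 and 0.45. With equal sums of all levels Rela turns to 0.02 in NIK KO. The number of genes 1.5-fold or more lower falls from 2 to 1 in WT under both scalings and in NIK KO as deposited, by the loss of Nfkbia. At 2-fold, added after the data were seen, 1 gene is higher (Rel) and 1 lower (Nfkbiz) in each genotype. No paired analysis was possible because the tables hold no values per library, and for the same reason leaving out a mouse was not run.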
